A study of Mus musculus with 18 samples.

Results

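Cholesterol synthesis and efflux were followed through 29 genes in cultured mouse cortical astrocytes: 18 enzymes of the mevalonate pathway and the sterol branch, 5 genes of SREBP control, the sterol transport protein gene Stard4, and 5 genes of the LXR receptors and their targets. The genes were chosen by known function, with earlier results of these data known. They were matched from Entrez identifiers to mouse symbols, and all 29 are among the 22078 genes of both deposited tables. Other genes of the pathway that stand in neither this list nor the gene lists described further on are not analysed here. The study measured gene expression by RNA sequencing after stimulation of designer receptors (DREADDs), muscarinic receptors altered to respond to a synthetic ligand, here deschloroclozapine (DCZ). All 18 libraries, those of the control cultures included, came from astrocytes that had been transfected with a plasmid and given 8 µM DCZ for 90 min, 7 days after transfection. At 90 min there were 4 groups: cells with hM3Dq, a receptor coupled to Gq, with rM3Ds, coupled to Gs, with hM4Di, coupled to Gi, and control cells with EGFP. The other 2 groups, hM3Dq and an mCherry control, were kept for a further 3 days in medium without DCZ. Each group had 3 libraries. Since every receptor group also received the ligand, effects of the receptor alone and of its stimulation cannot be told apart. The labels give neither the promoter of the plasmids, the share of cells that took them up, the strain nor the age of the animals, and the medium contained serum.

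Cholesterol is built from acetyl-CoA through mevalonate and isoprenoid units to squalene, which is closed to lanosterol and trimmed to cholesterol by the enzymes of the sterol branch. When membrane sterol is low, SCAP escorts the SREBP factors to the Golgi, where they are cleaved and then switch on most of these enzymes, whereas INSIG proteins hold SCAP back when sterol is plentiful. Oxysterols activate the LXR receptors, which raise the exporters ABCA1 and ABCG1. In the brain, astrocytes make much of the cholesterol and pass it to neurons on lipoprotein particles.

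Depth ranged from 16.1 to 25.2 M counts a library among the 12 of 90 min and from 16.6 to 19.7 M among the 6 of 3 days. Levels are given as CPM, the share of the library total scaled to 1 M counts, which is not corrected for gene length and so not compared between genes. The immediate early gene Fos measured 51.5 to 54.9 CPM with hM3Dq at 90 min and 9.85 to 15.5 CPM with EGFP. Of the astrocyte markers, Sox9 measured 108 to 321 CPM, Aqp4 17.1 to 145 CPM and Gfap 1.70 to 22.8 CPM over the 18 libraries. Of the fibroblast and mural markers, Col1a1 measured 663 to 1906 CPM, Dcn 104 to 467 CPM and Acta2 55.3 to 432 CPM. Lum measured 0.0793 to 17.1 CPM, and Rgs5 was at most 0.346 CPM. Over all genes, EGFP 1, rM3Ds 2 and rM3Ds 3 stood apart at 90 min on the first principal component (52.5% of the variance), and mCherry 3 did at 3 days (56.7%). In these 3 libraries at 90 min the summed level of 8 proliferation genes was 330 to 496 CPM, against 108 to 212 CPM in the other 9. EGFP 1 also had the lowest sum of the 10 astrocyte markers, 489 CPM, against 848 to 1050 CPM in the other 11 libraries at 90 min. The markers did not all go the same way, and 3 of the 10 lay above their 90 min mean in EGFP 1, Gfap, S100b and Gja1. Gfap was highest there, at 22.8 CPM, against 2.02 in EGFP 2 and 2.39 in EGFP 3. No value has been corrected for these differences between libraries, and their part in the results was not tested. In bulk RNA, fewer cells of a type and less RNA per cell cannot be told apart. The labels number the libraries 1 to 3 but do not call them separate cultures, so the spread behind each p-value is that of libraries and could be technical.

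Promoter windows from RefSeq (GRCm38.p6, 250 bases before to 50 after a transcript start) were matched to 24 of the 29 genes. Shown here are those of Hmgcs1, Idi1, Cyp51 and Msmo1, because these enzymes, with Sqle, are the 5 members whose hM3Dq libraries all lay above the EGFP libraries at 90 min and all below the mCherry libraries at 3 days. The windows lie at chr13:119690101-119690400 on the plus strand for Hmgcs1, chr13:8885356-8885655 on the plus strand for Idi1, chr5:4104648-4104947 on the minus strand for Cyp51 and chr8:64733529-64733828 on the minus strand for Msmo1. Each is printed 5′ to 3′ along its gene, and capitals mark 2 motifs on either strand, CCAAT (read as ATTGG on the other strand), the letters bound by NF-Y, and TCACNCCAC, a form of the sterol regulatory element bound by SREBP. No match in these windows overlaps another.
Hmgcs1: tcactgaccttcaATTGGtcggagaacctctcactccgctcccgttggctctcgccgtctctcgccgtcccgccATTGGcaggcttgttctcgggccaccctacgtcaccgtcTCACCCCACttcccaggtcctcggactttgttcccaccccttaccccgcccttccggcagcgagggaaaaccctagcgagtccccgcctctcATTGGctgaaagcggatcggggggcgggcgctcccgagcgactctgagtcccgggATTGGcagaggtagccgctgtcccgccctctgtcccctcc
Idi1: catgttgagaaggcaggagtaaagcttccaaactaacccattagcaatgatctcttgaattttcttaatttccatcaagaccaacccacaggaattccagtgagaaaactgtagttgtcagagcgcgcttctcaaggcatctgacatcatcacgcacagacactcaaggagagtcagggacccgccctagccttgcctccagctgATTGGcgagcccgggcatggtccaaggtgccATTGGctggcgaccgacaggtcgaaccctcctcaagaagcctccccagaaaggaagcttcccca
Cyp51: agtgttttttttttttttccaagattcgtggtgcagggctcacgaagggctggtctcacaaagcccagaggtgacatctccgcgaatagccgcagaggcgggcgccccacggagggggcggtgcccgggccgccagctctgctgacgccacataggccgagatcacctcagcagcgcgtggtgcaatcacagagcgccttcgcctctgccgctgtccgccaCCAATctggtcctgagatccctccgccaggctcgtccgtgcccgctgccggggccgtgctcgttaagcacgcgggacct
Msmo1: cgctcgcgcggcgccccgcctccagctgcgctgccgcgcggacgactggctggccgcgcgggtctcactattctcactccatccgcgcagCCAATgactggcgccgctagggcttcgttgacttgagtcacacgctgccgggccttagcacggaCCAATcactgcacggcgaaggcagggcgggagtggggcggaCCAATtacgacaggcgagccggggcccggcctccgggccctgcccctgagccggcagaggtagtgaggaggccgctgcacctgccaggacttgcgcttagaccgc

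CCAAT was found in the windows of 19 of the 24 genes and in 41.1% of all 27025 genes in the RefSeq table. Hmgcs1 held 4 matches, Msmo1 3, Idi1 2 and Cyp51 1. TCACNCCAC was found in 1 of the 24, that of Hmgcs1, where it begins 137 bases before the start, and in 1.44% of all genes. CACGTG, the E-box that SREBP-1 can also bind, was found in 6 of the 24 (Abca1, Dhcr7, Hsd17b7, Insig1, Sc5d and Scap) and in 8.09% of all genes. The strict DR4 form of the LXR element, AGGTCA repeated after 4 bases, was found in none of the 24 and in 4 genes in all. Genes with several starts count once, both strands were searched, and a match only says that these letters stand in the window.

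**Figure D1:**
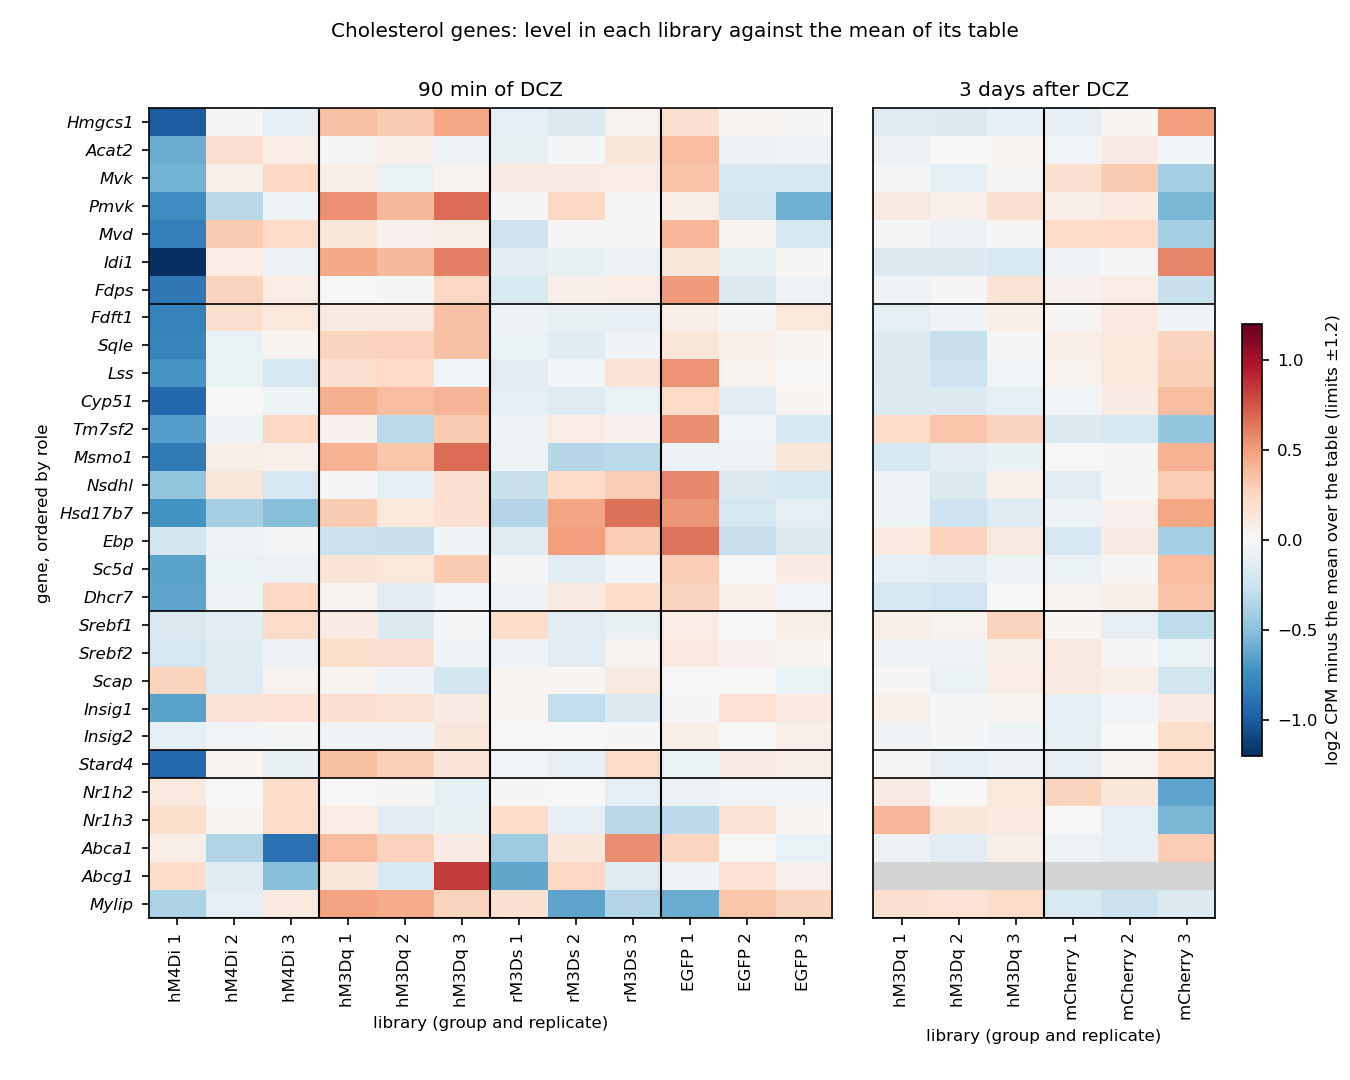
Level of each of the 29 genes (rows, ordered by role) in each library (columns), as log2 CPM minus the gene's mean over the 12 libraries at 90 min (left) or the 6 at 3 days (right). The column of hM4Di 1 is the lowest of its table for 17 of the 18 enzymes, the hM3Dq columns at 90 min are above the mean for Hmgcs1, Idi1, Sqle, Cyp51, Msmo1 and Pmvk, and Abcg1 is grey at 3 days, where no library had more than 1 count.

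Among the libraries at 90 min, hM4Di 1 stood apart in these genes. It held the lowest level of the 12 libraries for 17 of the 18 enzymes, Ebp being the exception, and for 21 of the 29 genes, against 10.4% of all genes with a mean of at least 10 counts. The 18 enzymes summed to 1208 CPM in hM4Di 1, 2140 in hM4Di 2 and 2175 in hM4Di 3. Against the mean of hM4Di 2 and 3, hM4Di 1 held 0.414 times the Idi1 level, 0.510 times that of Hmgcs1 and 0.862 times that of Ebp, with a median of 0.580 over the enzymes and of 0.983 over all genes. Insig1, which SREBP also switches on, stood at 0.563 times and Stard4 at 0.527 times, whereas Srebf2 stood at 0.920 times and the exporter gene Abca1 at 1.59 times. The enzymes were low together in this library, while the genes of the SREBP machinery itself, Insig1 apart, lay between 0.835 and 1.22 times the level of the others. hM4Di 1 was the deepest library, at 25.2 M counts. On the first principal component over all genes it stood at 8.63, against -17.5 for hM4Di 2 and -24.1 for hM4Di 3. The astrocyte marker Gfap measured 16.4 CPM in hM4Di 1, 1.94 in hM4Di 2 and 3.46 in hM4Di 3, and the glial progenitor marker Fabp7 17.2, 4.57 and 4.34 CPM. Of the 5 oligodendrocyte precursor markers, Olig1 had 29, 0 and 1 counts and Olig2 4, 0 and 0, whereas Sox10 had 1, 4 and 3. Pdgfra measured 2.38, 2.97 and 2.42 CPM and Cspg4 5.83, 5.51 and 4.23 CPM. Olig1 also had 28 counts in EGFP 1 and 7 each in rM3Ds 2 and rM3Ds 3. In hM4Di 1, 2 and 3 the 7 oligodendrocyte markers summed to 88.2, 96.4 and 112 CPM. The 10 astrocyte markers summed to 876, 883 and 966 CPM. The fibroblast and mural sum was 1052 CPM in hM4Di 1, the lowest of the 12 libraries, against 2347 and 1691 CPM. The part of these in the low enzyme levels was not tested, and the comparisons with hM4Di are given with and without it.

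The comparison of hM3Dq with EGFP at 90 min asked how cells with the Gq-coupled receptor differed from control cells. None of the 29 genes passed edgeR's quasi-likelihood test at an adjusted p below 0.05 over 13584 genes, of which 0.788% passed. At an unadjusted p below 0.05 there were 2, Pmvk and Msmo1, where 1078 of the 13584 genes reached it. DESeq2 called 1, Pmvk (1.55% of all genes by DESeq2). The median log2 fold change was 0.06 over the 29 genes and 0.00 over all genes, and 17 of the 29 lay above 0. In 7 genes (24.1%) all hM3Dq libraries lay above all EGFP libraries, against 6.06% of all genes, and in none did all lie below, against 9.43%. These 7 were Hmgcs1, Pmvk, Idi1, Sqle, Cyp51, Msmo1 and Stard4. With the replicate number as a block, again none of the 29 passed, and 0.486% of all genes did.

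Pmvk, phosphomevalonate kinase, measured 45.6, 41.3 and 49.9 CPM with hM3Dq (libraries 1 to 3, as in all lists of 3 values), 33.4, 27.8 and 21.7 with EGFP, 32.0, 38.8 and 32.5 with rM3Ds and 19.2, 25.3 and 32.2 with hM4Di. The 3 hM3Dq libraries were the highest of the 12. The log2 fold change of hM3Dq over EGFP was 0.75 ± 0.19 (SE; adjusted p = 0.153). Msmo1, a methylsterol monooxygenase that takes part in the removal of methyl groups from the sterol ring, measured 274, 260.4 and 328 CPM with hM3Dq, 197, 204 and 236 with EGFP, 204, 169 and 168 with rM3Ds and 117, 219.6 and 229.7 with hM4Di. Here too the hM3Dq libraries were the 3 highest, with a log2 fold change over EGFP of 0.47 ± 0.21 (SE; adjusted p = 0.619). Idi1, the isomerase that makes dimethylallyl diphosphate, measured 199, 192 and 222 CPM with hM3Dq, 161, 142 and 152 with EGFP, 138, 143 and 142 with rM3Ds and 63.4, 158 and 148 with hM4Di. The groups of hM3Dq and EGFP did not overlap, and the log2 fold change was 0.46 ± 0.25 (SE; adjusted p = 0.727).

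Hmgcs1, the synthase that commits acetyl units to the mevalonate pathway, measured 447, 442 and 490.0 CPM with hM3Dq, 406, 371 and 369 with EGFP, 338, 327 and 373 with rM3Ds and 181, 358 and 352 with hM4Di. Cyp51, the lanosterol demethylase, measured 242, 233 and 239 CPM with hM3Dq, 214, 169 and 189.9 with EGFP, 172, 168 and 174 with rM3Ds and 96.1, 183 and 185 with hM4Di. Sqle, squalene epoxidase, measured 234, 238 and 249.99 CPM with hM3Dq, 219, 211 and 206 with EGFP, 192, 184 and 195 with rM3Ds and 116, 189 and 214 with hM4Di. In each of these 3 genes the hM3Dq libraries were the 3 highest of the 12, hM4Di 1 was the lowest, and the log2 fold changes over EGFP were 0.30, 0.35 and 0.22 with adjusted p of 0.813, 0.738 and 0.852 by edgeR. The other 12 enzymes had log2 fold changes between -0.32 (Ebp) and 0.13 (Fdft1), with overlapping groups. With EGFP 1 left out, again no member passed (0.748% of all genes did), and the median of the 29 was 0.15 with 23 above 0. With EGFP 1, rM3Ds 2, rM3Ds 3 and hM4Di 1 left out, an alternative chosen after seeing the data, Pmvk, Idi1 and Cyp51 passed (2.2% of all genes did).

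**Figure D2:**
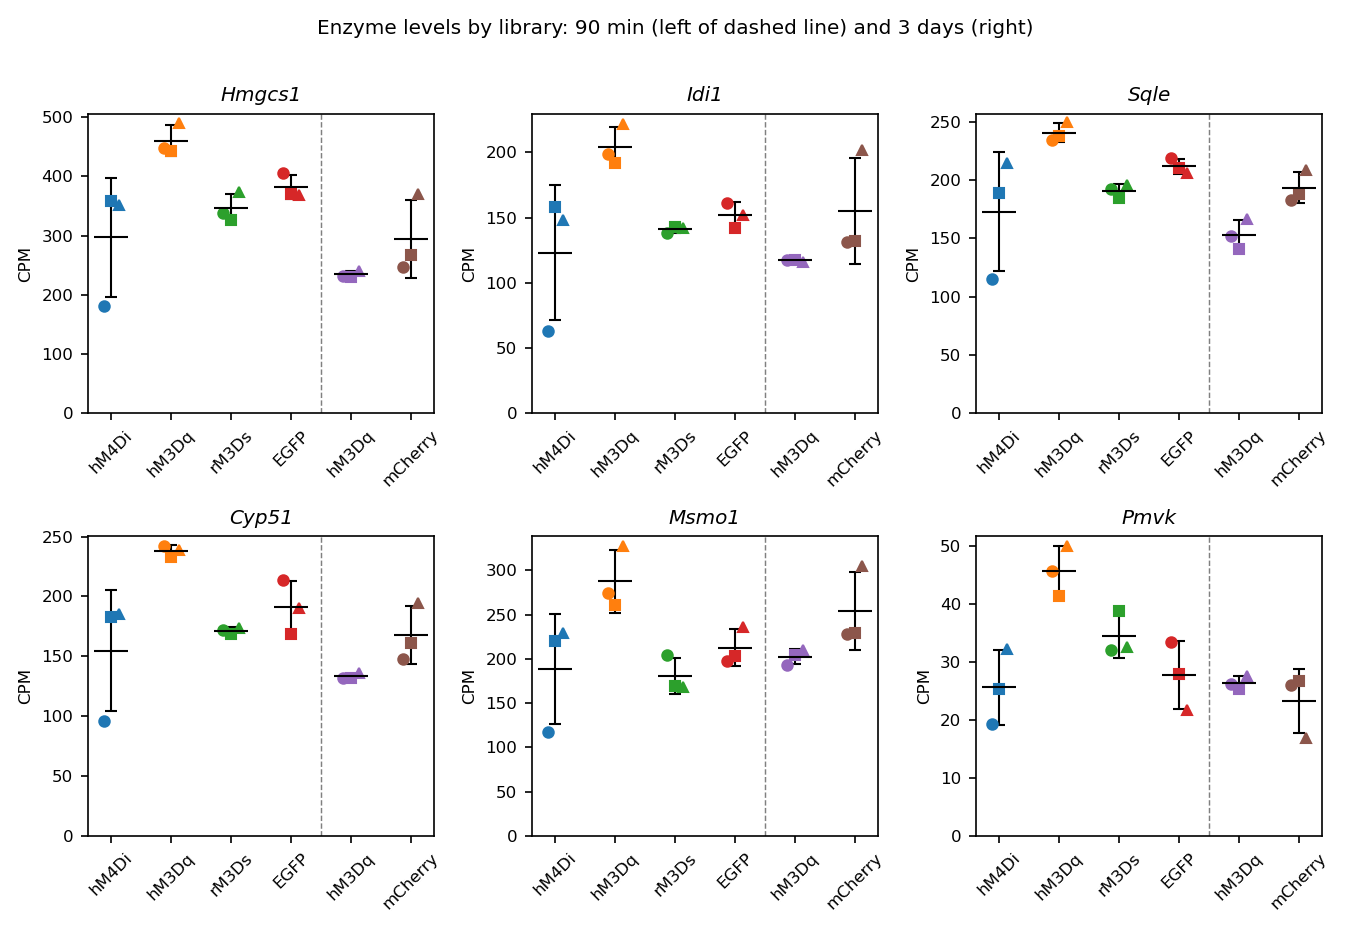
Level of 6 enzyme genes in each library, in CPM on a linear axis from 0 (points: circle, square and triangle for replicates 1, 2 and 3; horizontal line: mean; bars: SD, n = 3), at 90 min left of the dashed line and at 3 days right of it. hM3Dq at 90 min is the highest group in all 6 panels, and hM4Di 1 is the lowest library at 90 min in each.

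For rM3Ds against EGFP, none of the 29 genes passed edgeR's test, and DESeq2 called none. Of all genes, 0.0147% passed by edgeR and 0.398% by DESeq2. None of the 29 reached an unadjusted p below 0.05, where 575 of the 13584 genes did. The 3 genes of smallest p were Pmvk, at 0.30 ± 0.19 (SE; adjusted p = 1) on the log2 scale, Sc5d, the sterol desaturase, at -0.20 ± 0.14 (SE; adjusted p = 1), and Insig1 at -0.23 ± 0.19 (SE; adjusted p = 1). Sc5d measured 141, 131 and 138 CPM with rM3Ds and 171, 143 and 153 with EGFP, so the groups did not overlap, by a gap smaller than the range of either. Insig1 measured 495, 397 and 428 CPM with rM3Ds and 467, 546 and 526 with EGFP, and these overlapped. All rM3Ds libraries lay above all EGFP libraries in 1 gene, Scap (3.4%, against 4.41% of all genes), and below in 3, Fdft1, Sqle and Sc5d (10.3%, against 2.94%). The median over the 29 genes was -0.11 with 8 above 0, and -0.02 with 13 above 0 without EGFP 1, in which the enzymes had a median of 1.33 times their level in EGFP 2 and 3.

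For hM4Di against EGFP, again none of the 29 passed edgeR's test or DESeq2's, and 0% of all genes did by edgeR and 0.202% by DESeq2. At an unadjusted p below 0.05 there were 3, all with lower values, where 745 of the 13584 genes reached it. Lss, lanosterol synthase, measured 50.2, 77.0 and 74.3 CPM with hM4Di and 117, 85.2 and 82.7 with EGFP, a log2 difference of -0.52 ± 0.18 (SE; adjusted p = 0.833). Hsd17b7, a ketoreductase of the sterol branch, measured 96.5, 119 and 116 CPM with hM4Di, 224, 138 and 148 with EGFP, 125, 223 and 251 with rM3Ds and 192, 169.5 and 179 with hM3Dq, and the difference from EGFP was -0.65 ± 0.25 (SE; adjusted p = 0.833). Its hM4Di libraries were the 3 lowest of the 12, while EGFP 1, rM3Ds 2 and rM3Ds 3 were the 3 highest, the libraries that also had the highest proliferation genes. Sc5d measured 91.2, 134 and 141 CPM with hM4Di, below every EGFP library, with a difference of -0.37 ± 0.14 (SE; adjusted p = 0.833). All hM4Di libraries lay below all EGFP libraries in 5 genes, Hmgcs1, Lss, Hsd17b7, Sc5d and Srebf2 (17.2%, against 4.03% of all genes), and above in Nr1h2 (3.4%, against 4.37%). All 18 enzymes had log2 fold changes below 0, with a median over the 29 genes of -0.20 and 3 above 0. Without hM4Di 1 that median was -0.05 with 10 above 0. The 3 comparisons with EGFP share their control libraries, so they are not independent of each other.

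Between receptors, hM3Dq against rM3Ds gave none of the 29 genes by edgeR (0.67% of all genes) and 1 by DESeq2, Msmo1 (3.22% of all genes by DESeq2). At an unadjusted p below 0.05 by edgeR there were 7, where 1934 of the 13584 genes reached it. Msmo1 stood at 0.72 ± 0.21 (SE; adjusted p = 0.175) on the log2 scale, Cyp51 at 0.52 ± 0.20 (SE; adjusted p = 0.283) and Mylip at 0.63 ± 0.26 (SE; adjusted p = 0.309). All hM3Dq libraries lay above all rM3Ds libraries in 10 of the 29 genes (34.5%, against 8.11% of all genes), and 8 of these were enzymes. They lay below in Mvk and Scap (6.9%, against 14.8%). Mylip, which encodes a ubiquitin ligase that lowers lipoprotein receptors and is an LXR target, measured 32.9, 32.3 and 28.5 CPM with hM3Dq, 27.8, 15.9 and 18.9 with rM3Ds, 15.7, 30.7 and 29.4 with EGFP and 18.6, 22.2 and 27.4 with hM4Di. Its 3 low values outside hM4Di were those of rM3Ds 2, rM3Ds 3 and EGFP 1. When hM4Di 1, no library of either group, was left out of the shared fit, which changes the estimate of the spread, the scaling and the genes tested, 5 members passed, Hmgcs1, Idi1, Sqle, Cyp51 and Msmo1, all higher with hM3Dq (1.12% of all genes passed).

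For hM3Dq against hM4Di, none of the 29 passed by edgeR (0.802% of all genes), and DESeq2 called Hmgcs1, Pmvk and Cyp51 (2.83% of all genes by DESeq2). By edgeR 12 reached an unadjusted p below 0.05, where 1546 of the 13584 genes did. The smallest p belonged to Pmvk, at 0.89 ± 0.19 (SE; adjusted p = 0.0626) on the log2 scale, followed by Cyp51 at 0.68 ± 0.20 (SE; adjusted p = 0.173) and Hmgcs1 at 0.69 ± 0.21 (SE; adjusted p = 0.181). All hM3Dq libraries lay above all hM4Di libraries in 11 genes (37.9%, against 8.56% of all genes) and below in Nr1h2 (3.4%, against 12.4%). The median over the 29 genes was 0.27 with 24 above 0. Without hM4Di 1 it was 0.05 with 17 above 0, and Idi1 alone passed (0.768% of all genes). With EGFP 1, rM3Ds 2 and rM3Ds 3 left out too, a set chosen after seeing the data, 8 members passed (7.47% of all genes): Hmgcs1, Pmvk, Idi1, Sqle, Cyp51, Msmo1, Hsd17b7 and Abca1. For rM3Ds against hM4Di, none of the 29 passed by edgeR (0.0147% of all genes), and DESeq2 called Hsd17b7 (1.44% of all genes by DESeq2). By edgeR 2 reached an unadjusted p below 0.05, where 1355 of the 13584 genes did. Hsd17b7 stood at 0.86 ± 0.25 (SE; adjusted p = 0.286), Nr1h2, the broadly expressed LXR receptor, at -0.14 ± 0.08 (SE; adjusted p = 0.567) and Pmvk at 0.44 ± 0.19 (SE; adjusted p = 0.475). The rM3Ds libraries all lay above the hM4Di libraries in Hsd17b7 (3.4%, against 5.79% of all genes) and below in no member, against 5.04%. The median over the 29 genes was 0.14 with 21 above 0, and -0.05 with 13 above 0 without hM4Di 1. Nr1h2 measured 99.5, 99.0 and 90.6 CPM with rM3Ds and 106, 96.9 and 118 with hM4Di, and these overlapped. Without rM3Ds 1 Hsd17b7 passed by edgeR (2.83% of all genes), at 1.11 ± 0.19 (SE; adjusted p = 0.0172). With EGFP 1, rM3Ds 2 and rM3Ds 3 left out, where rM3Ds is the single library rM3Ds 1, the log2 difference was 0.19, given as a value with no test.

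At 3 days hM3Dq was compared with mCherry, both after removal of DCZ. Of the 28 members tested (Abcg1 was too low), none passed edgeR's test, as was the case for 0% of 12807 genes. At an unadjusted p below 0.05 there were 9, where 1540 of the 12807 genes reached it. DESeq2 called 1, Tm7sf2 (1.09% of all genes by DESeq2). In 9 of the 28 (32.1%), all of them enzymes, every hM3Dq library lay below every mCherry library, against 16.1% of all genes, and in 3 (10.7%) every one lay above, against 9.32%. The 9 were Hmgcs1, Idi1, Sqle, Lss, Cyp51, Msmo1, Hsd17b7, Sc5d and Dhcr7, and the 3 were Tm7sf2, Nr1h3 and Mylip. The median log2 fold change over the 28 was -0.08 with 10 above 0.

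Sqle measured 152, 141 and 166 CPM with hM3Dq and 183, 188 and 208 with mCherry, and the log2 difference was -0.31 ± 0.10 (SE; adjusted p = 0.32). Cyp51 measured 132, 132 and 136 CPM against 148, 161 and 195, a difference of -0.30 ± 0.11 (SE; adjusted p = 0.359). Hmgcs1 measured 232, 230.0 and 241 CPM against 246, 267 and 369.9, a difference of -0.30 ± 0.15 (SE; adjusted p = 0.448). In these genes mCherry 3 was the highest library, and mCherry 1 and 2 lay close above the hM3Dq libraries. Idi1 measured 117, 118 and 116 CPM against 131, 132 and 202, and Msmo1 193, 205 and 209.5 against 228, 229.6 and 305. The mean differences of Idi1, -0.38, and Msmo1, -0.30, took in an mCherry 3 that was 1.53 and 1.33 times the mean of the other mCherry libraries.

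Tm7sf2, a sterol reductase, measured 24.9, 26.9 and 25.5 CPM with hM3Dq and 19.3, 18.9 and 15.7 with mCherry, with no overlap and a log2 difference of 0.54 ± 0.11 (SE; adjusted p = 0.228). Mylip measured 25.6 to 26.4 CPM against 20.4, 19.2 and 20.7, with no overlap and a difference of 0.40 ± 0.09 (SE; adjusted p = 0.228). Nr1h3, an LXR receptor, measured 27.2, 22.9 and 22.3 CPM against 21.1, 19.5 and 14.3, a difference of 0.43 ± 0.16 (SE; adjusted p = 0.369). Without mCherry 3, 7 members passed edgeR's test (25% of the 28, against 9.72% of all genes): Mvk, Mvd, Sqle, Lss and Cyp51 were lower with hM3Dq, and Tm7sf2 and Mylip were higher. In that fit Sqle stood at -0.25 ± 0.06 (SE; adjusted p = 0.0238), Tm7sf2 at 0.46 ± 0.08 (SE; adjusted p = 0.00362) and Mylip at 0.42 ± 0.08 (SE; adjusted p = 0.00461). Each of these calls rests on 2 control libraries.

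**Figure D3:**
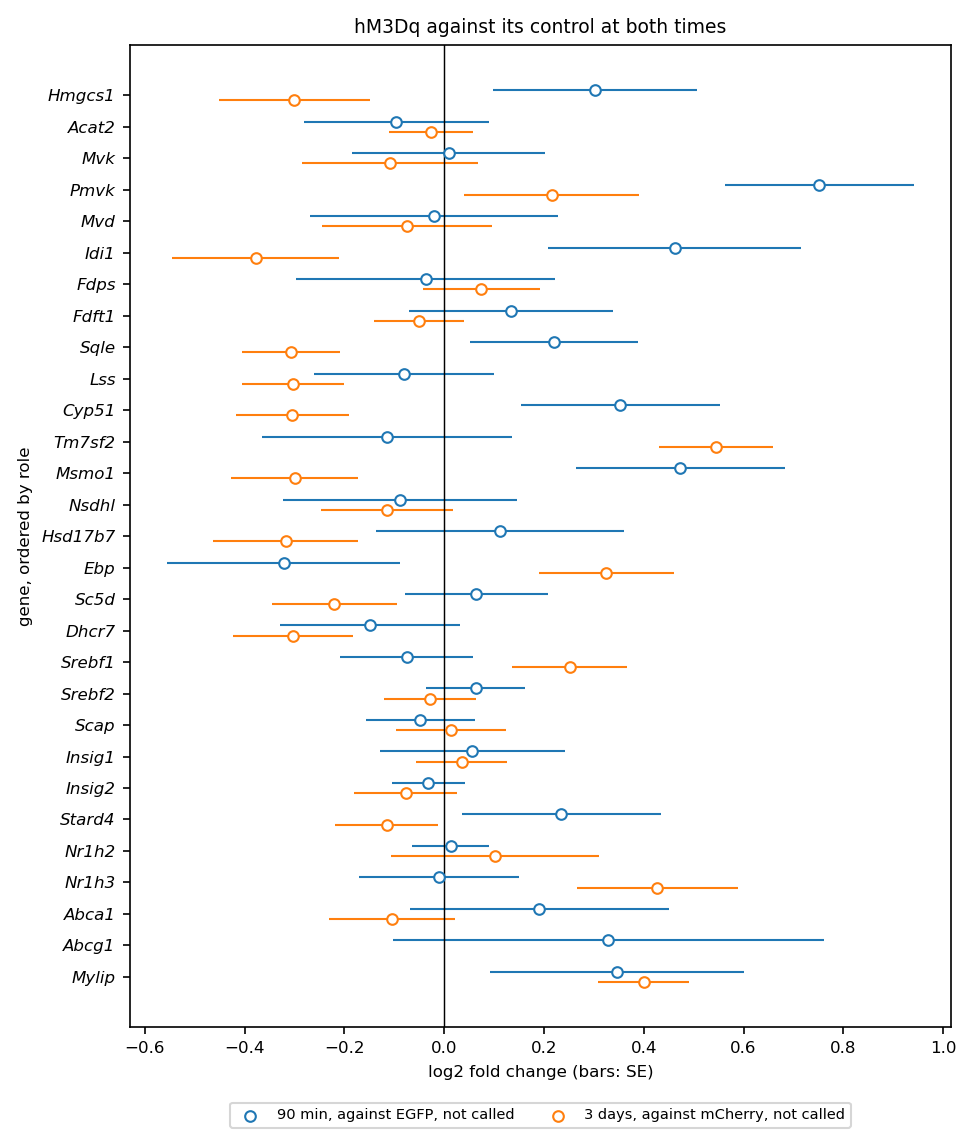
Log2 fold change of hM3Dq over its control for each gene (points, with SE as bars) at 90 min against EGFP and at 3 days against mCherry, fitted by edgeR; open points did not pass at an adjusted p below 0.05, and Abcg1 was not tested at 3 days. Hmgcs1, Idi1, Sqle, Cyp51 and Msmo1 lie right of 0 at 90 min and left of 0 at 3 days, and no point passed.

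Whether the hM3Dq effect differed between the times was tested as 1 contrast, hM3Dq over mCherry at 3 days minus hM3Dq over EGFP at 90 min. The control plasmid changes with time here, so a difference between EGFP and mCherry cannot be told apart from a change of the effect. None of the 28 members passed by edgeR (0.396% of 13391 genes), and DESeq2 called 4, Idi1, Sqle, Cyp51 and Msmo1 (1.47% of all genes by DESeq2). By edgeR 7 reached an unadjusted p below 0.05, where 1303 of the 13391 genes did. The difference was -0.76 ± 0.18 (SE; adjusted p = 0.128) on the log2 scale for Msmo1, -0.52 ± 0.13 (SE; adjusted p = 0.143) for Sqle and -0.83 ± 0.21 (SE; adjusted p = 0.151) for Idi1. Cyp51 followed at -0.65 ± 0.16 (SE; adjusted p = 0.156), and Tm7sf2 had the only positive value among the 7, 0.67 ± 0.28 (SE; adjusted p = 0.469). The pattern of all hM3Dq libraries above EGFP at 90 min and below mCherry at 3 days held in 5 of the 28 members and in 1.1% of all genes, and the reverse pattern in none of the 28 and in 0.657% of all genes. This pattern was picked out after its values were seen. With EGFP 1 and mCherry 3 left out, also chosen after seeing the data, 8 members passed (3.72% of all genes), each with a more negative effect at 3 days: Hmgcs1, Mvk, Pmvk, Idi1, Sqle, Cyp51, Msmo1 and Hsd17b7. There Idi1 stood at -0.66 ± 0.10 (SE; adjusted p = 0.00097), Sqle at -0.50 ± 0.10 (SE; adjusted p = 0.00999) and Msmo1 at -0.58 ± 0.13 (SE; adjusted p = 0.0192).

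From 90 min to 3 days within hM3Dq, 15 of the 28 members passed edgeR's test, 13 lower (46.4%, against 20.2% of all genes) and 2 higher (7.1%, against 17.6%), where 37.9% of all genes passed in either direction. Between the times Aqp4 went from 54.0 to 145 CPM over the libraries at 90 min to 17.1 to 26.1 CPM at 3 days and Slc1a3 from 32.1 to 68.6 CPM to 149 to 186 CPM, while the summed 10 astrocyte markers were 489 to 1050 CPM and 734 to 855 CPM. The summed 5 fibroblast and mural markers were 1052 to 2347 CPM at 90 min and 1173 to 1626 CPM at 3 days, and the part of these in the result was not tested. Time, the deposited table and whatever else separates the libraries of 90 min from those of 3 days cannot be told apart. The 13 were 5 of the 7 mevalonate enzymes (Hmgcs1, Mvk, Pmvk, Mvd and Idi1), 6 of the 11 sterol branch enzymes (Fdft1, Sqle, Lss, Cyp51, Msmo1 and Hsd17b7), Srebf2 and Scap. The median log2 fold change was -0.28 over the 28 members and -0.54 over the 18 enzymes, against -0.01 over all genes. The libraries of the 2 times did not overlap in 17 of the 28 with lower values (60.7%, against 31.7% of all genes) and in 3 with higher values (10.7%, against 33.7%).

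Hsd17b7 fell most, from the 90 min values above to 82.0, 71.4 and 76.0 CPM, a log2 fold change of -1.26 ± 0.19 (SE; adjusted p = 0.000362). Hmgcs1 fell 1.99-fold, to the 3-day values above, at -0.99 ± 0.14 (SE; adjusted p = 0.00019). Cyp51 fell at -0.86 ± 0.12 (SE; adjusted p = 0.000188), Sqle at -0.67 ± 0.09 (SE; adjusted p = 0.000168), Idi1 at -0.82 ± 0.15 (SE; adjusted p = 0.00119) and Msmo1 at -0.53 ± 0.13 (SE; adjusted p = 0.00737). In each the hM3Dq libraries of the 2 times did not overlap. Mvd, which makes isopentenyl diphosphate, measured 46.6, 44.3 and 44.9 CPM at 90 min and 26.1, 25.1 and 26.6 at 3 days, at -0.83 ± 0.17 (SE; adjusted p = 0.00292). Pmvk measured 26.2, 25.3 and 27.6 CPM at 3 days, at -0.81 ± 0.18 (SE; adjusted p = 0.00494). The remaining 3 enzymes that fell, Lss, Mvk and Fdft1, had log2 fold changes of -0.57, -0.55 and -0.27, with adjusted p of 0.0084, 0.0301 and 0.0393. The call for Mvk was lost without any 1 of the 6 hM3Dq libraries, and that for Fdft1 without any of them but hM3Dq 3 at 3 days.

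Ebp, a sterol isomerase, rose within hM3Dq, from 34.7, 34.9 and 40.5 CPM at 90 min to 58.0, 64.8 and 57.5 at 3 days, at 0.69 ± 0.21 (SE; adjusted p = 0.0241). Nr1h3 rose from 17.9, 15.5 and 15.8 CPM to its 3-day values above, at 0.54 ± 0.16 (SE; adjusted p = 0.0224). Neither pair of groups overlapped. The Ebp call was lost without hM3Dq 1 or 2 at either time, and that of Nr1h3 without hM3Dq 1 at 3 days or hM3Dq 2 or 3 at 90 min. Acat2, Fdps, Tm7sf2, Nsdhl, Sc5d and Dhcr7 were the enzymes that did not pass, with log2 fold changes from -0.38 (Fdps) to 0.28 (Tm7sf2). The enzymes without values by library above are given by their range. Acat2, an acetyl-CoA acetyltransferase, lay at 47.2 to 90.7 CPM at 90 min and 76.3 to 87.0 CPM at 3 days. Mvk, mevalonate kinase, lay at 33.6 to 61.8 CPM at 90 min and 26.9 to 44.0 CPM at 3 days. Fdft1, squalene synthase, lay at 87.9 to 193 CPM at 90 min and 137 to 162 CPM at 3 days. For all 3 the lowest library at 90 min was hM4Di 1. Nsdhl, a sterol dehydrogenase, lay at 32.2 to 65.3 CPM at 90 min and 45.5 to 64.8 CPM at 3 days, and Dhcr7, which makes the last step to cholesterol, at 23.9 to 45.7 CPM at 90 min and 28.3 to 43.1 CPM at 3 days. Both were lowest in hM4Di 1 as well, and neither passed in any comparison.

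In the controls, mCherry at 3 days against EGFP at 90 min, 7 of the 28 members passed, all lower (25%, against 21% of all genes), where 39.4% of all genes passed in either direction. The controls of the 2 times did not overlap in 7 genes with lower values (25%, against 23.2% of all genes) and in 2 with higher values (7.1%, against 24%). Here the control plasmid changes with time, so plasmid and time cannot be told apart. The 7 were Hmgcs1, Mvd, Fdps, Hsd17b7, Srebf1, Srebf2 and Scap. Mvd fell from 56.5, 45.5 and 38.7 CPM to 31.4, 31.6 and 20.3, at -0.78 ± 0.17 (SE; adjusted p = 0.0042), and Hsd17b7 to 82.9, 89.0 and 119.7, at -0.83 ± 0.19 (SE; adjusted p = 0.00455). Fdps, farnesyl diphosphate synthase, fell from 196, 126 and 136 CPM to 117, 119 and 93.7, at -0.50 ± 0.16 (SE; adjusted p = 0.0312). Hmgcs1 fell at -0.40 ± 0.13 (SE; adjusted p = 0.0347), although mCherry 3 lay within the EGFP range. The call of Fdps was lost without EGFP 1 or mCherry 3, and that of Hmgcs1 without EGFP 1, EGFP 2, mCherry 1 or mCherry 2. Idi1, Sqle, Cyp51 and Msmo1 did not pass, at 0.01, -0.15, -0.21 and 0.24. Without EGFP 1, 11 members passed (38.6% of all genes), 7 lower and 4 higher, and 5 of the first 7 were among them.

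**Figure D4:**
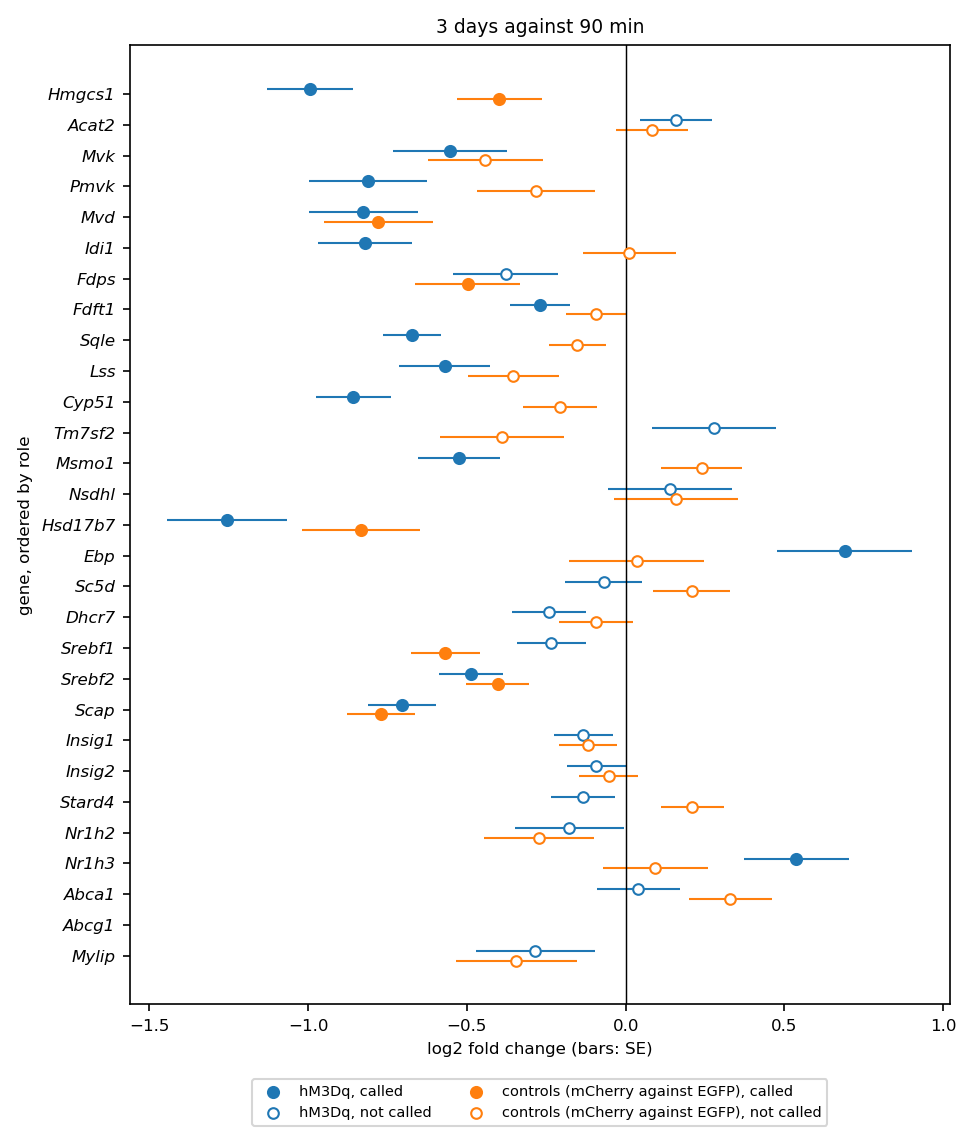
Log2 fold change from 90 min to 3 days for each gene (points, with SE as bars), within hM3Dq and in the controls (mCherry over EGFP), fitted by edgeR; filled points passed at an adjusted p below 0.05, and Abcg1 was not tested. Filled points lie left of 0 for 13 genes within hM3Dq and for 7 in the controls, and right of 0 for Ebp and Nr1h3 within hM3Dq.

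In SREBP control, Scap, Srebf2 and Srebf1 passed only in comparisons between the times. Scap, the sterol sensor that escorts SREBP, measured 199, 191 and 168 CPM with hM3Dq and 199, 201 and 192 with EGFP at 90 min, and 116, 109 and 123 with hM3Dq and 127, 124 and 101 with mCherry at 3 days. Every 3-day library lay below every 90 min library, and Scap fell by 0.70 ± 0.11 (SE; adjusted p = 0.000382) on the log2 scale within hM3Dq and by 0.77 ± 0.11 (SE; adjusted p = 0.000295) in the controls. Srebf2, the factor that mainly drives the cholesterol enzymes, measured 510.2, 511 and 431 CPM with hM3Dq, 485, 474 and 465 with EGFP, 445, 419 and 468 with rM3Ds and 395, 408 and 451 with hM4Di, and 341, 339 and 371 and 389, 364 and 341 in the 3-day groups of hM3Dq and mCherry. It fell by 0.49 ± 0.10 (SE; adjusted p = 0.00258) within hM3Dq and by 0.40 ± 0.10 (SE; adjusted p = 0.00784) in the controls. Srebf1, whose products act more on fatty acid genes, measured 291, 279 and 296 CPM with EGFP and 219, 200.4 and 174 with mCherry, and fell by 0.57 ± 0.11 (SE; adjusted p = 0.00206) in the controls, whereas within hM3Dq it stood at -0.23 with an adjusted p of 0.112. Insig1 and Insig2, the proteins that retain SCAP, did not pass in any of the 10 comparisons. Insig1 ranged from 308 CPM in hM4Di 1 to 562 CPM in hM4Di 3, and Insig2 from 66.5 to 83.3 CPM over all 18 libraries. Stard4, which carries cholesterol between membranes, did not pass either. It measured 80.7, 77.7 and 70.5 CPM with hM3Dq, 60.2, 69.9 and 69.3 with EGFP, 63.9, 61.8 and 75.8 with rM3Ds and 34.1, 66.1 and 63.4 with hM4Di at 90 min, and 68.3 to 87.2 CPM at 3 days. The hM4Di 1 library was again the lowest.

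On the efflux side, Abca1 measured 151, 143 and 126 CPM with hM3Dq, 140.3, 121 and 114 with EGFP, 89.7, 134 and 176 with rM3Ds and 127, 92.6 and 66.9 with hM4Di at 90 min, and 144, 137 and 157 with hM3Dq and 148, 143 and 189.6 with mCherry at 3 days. It passed in none of the 10 comparisons. Its rM3Ds libraries spanned 89.7 to 176 CPM within the 66.9 to 176 CPM of all 12 at 90 min, and the hM4Di library lowest in Abca1, hM4Di 3, was not the one lowest in the enzymes. Abcg1, the exporter to mature lipoprotein particles, had 5 to 19 counts a library at 90 min (0.288 to 0.946 CPM) and 0 or 1 at 3 days (at most 0.0603 CPM), where a count of 0 allows up to 0.152 to 0.181 CPM. The floor is 3 counts and covers counting error only. With all libraries and the filter on low counts, edgeR did not test Abcg1 in comparisons with 3-day libraries, and no fold is given. Nr1h2 ranged from 88.1 to 118 CPM at 90 min and from 52.2 to 97.2 CPM at 3 days, its lowest library being mCherry 3, and passed in no comparison. Nr1h3 and Mylip passed in no comparison within a time.

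**Figure D5:**
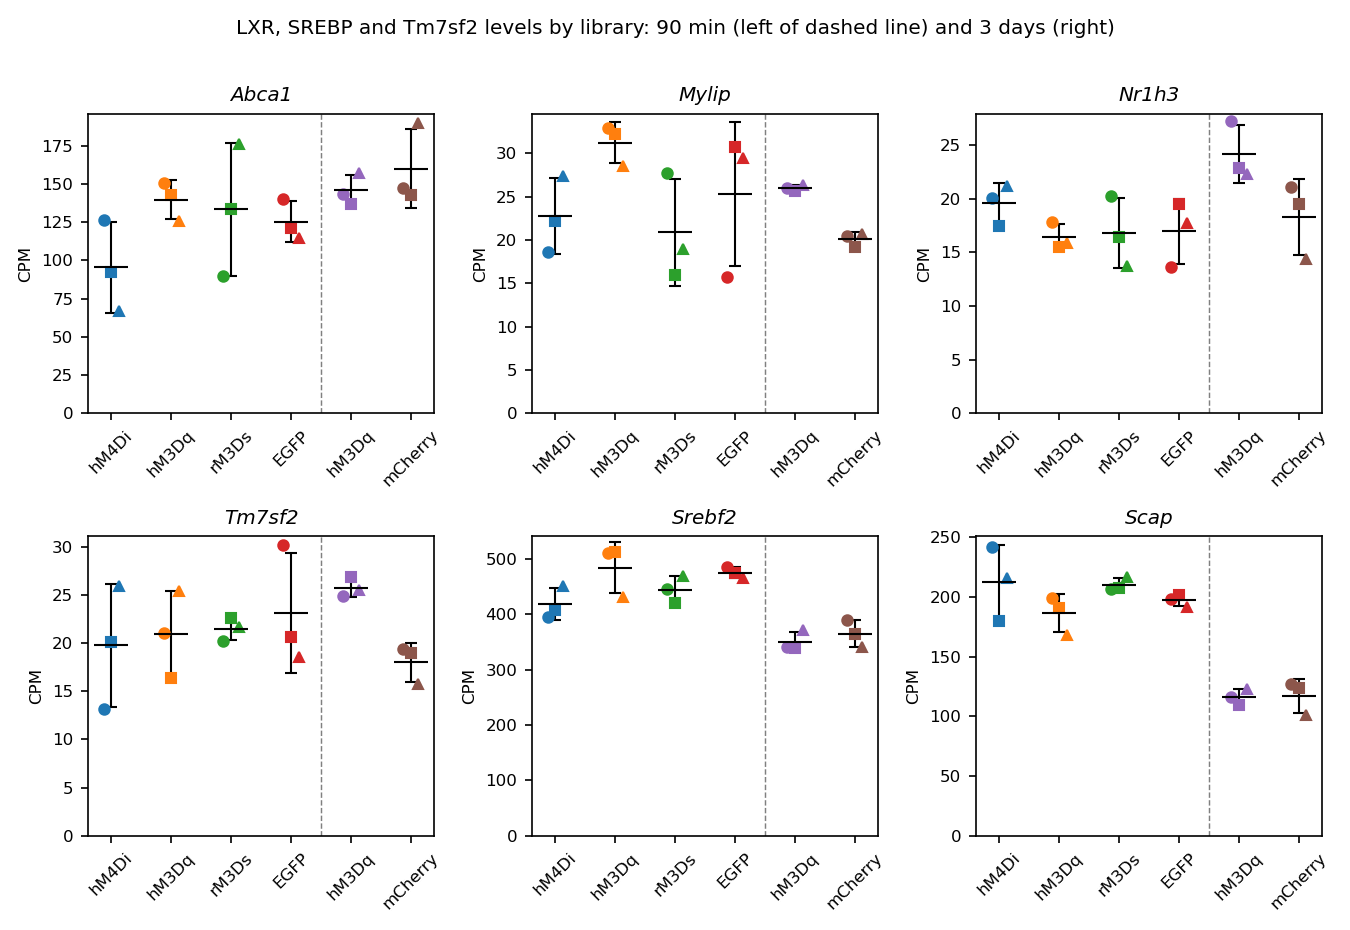
Level of Abca1, Mylip, Nr1h3, Tm7sf2, Srebf2 and Scap in each library, in CPM on a linear axis from 0 (points: circle, square and triangle for replicates 1, 2 and 3; horizontal line: mean; bars: SD, n = 3), at 90 min left of the dashed line and at 3 days right of it. Scap and Srebf2 lie lower in both 3-day groups, Mylip and Tm7sf2 separate hM3Dq from mCherry at 3 days, and Abca1 spreads widely within rM3Ds.

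Other lists of the pathway were described by their counts. They held 12 fatty acid targets of SREBP, 5 other LXR targets, 9 genes of sterol uptake, storage and trafficking, 5 of SREBP processing, 5 of the isoprenoid branch and 4 oxysterol enzymes, of which Ch25h was not tested. None of their members passed in any of the 6 comparisons at 90 min, in hM3Dq against mCherry at 3 days or in the change of the hM3Dq effect. Within hM3Dq from 90 min to 3 days, 3 of the 12 fatty acid targets fell and 1 rose, where 20.2% of all genes fell and 17.6% rose, so these counts are near the background. Fasn, fatty acid synthase, fell from 697, 662 and 531 CPM to 329, 312 and 379.6, at -0.91 ± 0.12 (SE; adjusted p = 0.000175). It fell in the controls too, at -0.70 ± 0.12 (SE; adjusted p = 0.00123). Elovl5 and Lpin1 were the others that fell within hM3Dq.

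The same shares of all genes, 20.2% lower and 17.6% higher, stand beside the counts of the other lists within hM3Dq. Of the 5 other LXR targets, 3 fell within hM3Dq. Arl4c measured 61.4, 60.4 and 59.1 CPM at 90 min and 21.0, 23.6 and 23.3 at 3 days, at -1.43 ± 0.16 (SE; adjusted p = 4.91e-05), Abcg4, a sterol exporter, fell 2.01-fold, and Pltp, the phospholipid transfer protein gene, stood at -0.50 ± 0.15 (SE; adjusted p = 0.0219). The same 3 fell in the controls, where 21% of all genes fell. Of the 9 genes of uptake, storage and trafficking, Npc2, which hands cholesterol out of the lysosome, rose from 411, 418 and 454 CPM to 838, 856 and 792, at 0.93 ± 0.13 (SE; adjusted p = 0.000263), and Gramd1b fell at -0.70 ± 0.14 (SE; adjusted p = 0.00216). Of the 5 SREBP processing genes reported, Erlin1 and Erlin2 rose. Ggps1 and Dhdds of the isoprenoid branch rose. Cyp46a1, which turns brain cholesterol into an oxysterol, fell within hM3Dq at -1.41 ± 0.21 (SE; adjusted p = 0.000405) and did not pass in the controls, and the difference between these 2 changes had an adjusted p of 0.315 by edgeR.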

How the data were processed

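Poly-A RNA sequencing libraries of 18 samples in 6 groups were used. The values are estimated counts per gene, deposited by the authors in 1 table for 90 min and 1 for 3 days, and 55.9% and 30.5% of them are not whole. The submitters' processing notes name Salmon 1.8.0, fastp 0.23.4 and, as genome build, mm39. How transcripts were summed to genes and whether strand was used is not given in the sources used here. Of the identifiers, 99.55% matched a symbol. Counts were rounded, scaled by TMM, filtered by filterByExpr and tested by edgeR 4.0.16 (quasi-likelihood, robust, R 4.3.3), with Benjamini-Hochberg adjustment over all genes and a threshold of 0.05. The 90 min groups shared 1 fit (13584 genes), the 3-day groups had their own (12807), and comparisons between the times used the 4 groups of hM3Dq and the controls (13391). SE is that of the log2 fold change, from the F statistic. Alternatives were DESeq2 1.42.0, limma-voom 3.58.1, RLE scaling, no filter, only the compared groups, a replicate block, and leaving out each library or, chosen after seeing the data, sets of libraries. Named with full statistics were the members past the threshold (at most the 10 of smallest p), or the 3 of smallest p where fewer than 3 passed, and at most 3 genes of each further list by smallest p. Ebp and Nr1h3, which rose within hM3Dq, and other members described at 90 min and 3 days were chosen after their values were seen. 1 gene of a further list is not reported here. The members and lists were chosen with earlier results of these data known. For hM3Dq and EGFP at 90 min, all 3 same-numbered pairs correlated over 0.1 in their deviations from the group means (0.123 to 0.162). For rM3Ds and EGFP the same-numbered pairs stood at -0.764 to -0.566. The first correlations are weak and the labels do not say that the numbers pair samples, so a pairing is not established. The scripts were tested on simulated data. Of simulated 2-fold changes, 52% passed for hM3Dq against EGFP, 83% for hM3Dq against mCherry and 50% for the change of the effect. A member that did not pass can therefore still differ. Depth was 16.1 to 25.2 M counts, so that the floor of 3 counts stood at 0.119 to 0.187 CPM.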

Additional observations from a re-analysis of the deposited data

How the results depend on the processing

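The log2 fold changes of the members past the threshold, or of the 3 of smallest p, kept their sign under each alternative run. Of the 10 counts of members called, those for rM3Ds and hM4Di against EGFP were 0 throughout. With DESeq2 the counts were 1 for hM3Dq against EGFP, 1 against rM3Ds and 3 against hM4Di, 1 for rM3Ds against hM4Di, 1 for hM3Dq against mCherry, 4 for the change of the hM3Dq effect, 16 within hM3Dq over time (35% of all genes) and 8 in the controls over time (36.4%). limma-voom gave 1 for hM3Dq against hM4Di (1% of all genes). Fitting only the compared groups, chosen after seeing the data, gave 3 for hM3Dq against rM3Ds (1.05%) and 1 against hM4Di (1.14%). The remaining sets were also chosen after seeing the data. Without EGFP 1, rM3Ds 2 and rM3Ds 3, hM3Dq against hM4Di gave 2 (2.16%). With hM4Di 1 left out as well, hM3Dq gave 3 against EGFP (2.2%), 8 against hM4Di (7.47%) and 2 against rM3Ds (1.02%), the last on the single library rM3Ds 1, which is assumed to vary like the other groups. With hM4Di 1 alone left out of the shared fit, hM3Dq gave 1 against EGFP (0.891%) and 5 against rM3Ds (1.12%). Without EGFP 1 and mCherry 3, the change of the effect gave 8 (3.72%), hM3Dq over time 21 (62.1%) and the controls over time 13 (45.2%). Leaving out 1 library at a time gave 0 to 1 for hM3Dq against hM4Di, for rM3Ds against hM4Di and for the change of the effect. It gave 0 to 7 for hM3Dq against mCherry, 12 to 15 within hM3Dq over time and 6 to 11 in the controls over time. The share of all genes was 0.768% for hM3Dq against hM4Di without hM4Di 1 and 2.83% for rM3Ds against hM4Di without rM3Ds 1. For the change of the effect it was 1.26% without EGFP 1 and 0.575% without mCherry 3. It was 9.72% for hM3Dq against mCherry without mCherry 3 and 38.6% in the controls without EGFP 1. With all libraries, 37.9% of all genes passed within hM3Dq over time and 39.4% in the controls. In some of the alternative fits Abcg1 passed the filter and was called lower in the controls at 3 days, on at most 1 count a library there. The counts of those fits include it. The cause of these shifts was not tested.

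With the replicate number as a block, the count was 14 within hM3Dq over time (36.2% of all genes) and 7 in the controls over time (37.2%). It was 0 in each of the other 8 comparisons, where 0% to 0.486% of all genes passed. Same-numbered libraries of different groups correlated at -0.764 to 0.373 over 18 pairs at 90 min, 7 of them over 0.1, and 3 of 12 libraries correlated best with their own number. At 3 days the 3 pairs stood at 0.022 to 0.041, and 6 of 6 libraries correlated best with their own number. Among the groups of 1 time, only for hM3Dq and EGFP were all 3 pairs over 0.1, and in that comparison the block changed no call of a member. In the other comparisons within a time not every pair was over 0.1, the best match at 3 days being a hint from the data. Genes at a few counts a library, Abcg1 above all, are limited by depth.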
